A study of Mus musculus with 14 samples.

Results

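Mouse cells that carry Zfp281 were followed from passage 1 to passage 3 of a chemical differentiation toward extraembryonic endoderm (XEN) cells. Passage 3 (cXENp3) was compared with passage 1 (cXENp1) in the wild-type line WT3 and in Rescue3.34, a Zfp281 knockout line in which the gene was put back, and the comparison was paired by line. It rests on 4 of the 14 RNA-seq libraries of the series, 1 library for each line and passage. The embryonic stem cell (ESC) library of each line at passage 0 gave the starting level, and both knockout lines at the same passages (KO3.34 and KO2.6, another 4 libraries) gave the comparison without Zfp281. XENB1 and XEN5 are established XEN lines, with 1 library each. The series asks, per its title, about the part that Zfp281 plays in the step from ESCs to XEN cells.

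All lines are 129S1/SVImJ. Undifferentiated ESCs were grown without feeders in serum with leukemia inhibitory factor (LIF). For passage 1 they were put into XEN medium, which the labels list without LIF, and treated for 48 hours with 10 ng/mL activin A and 0.01 µM all-trans retinoic acid. The cells were then passaged onto feeder fibroblasts in XEN medium and from there onto gelatin, which is passage 3. WT3 carries the wild-type gene. Rescue3.34 derives from the knockout line KO3.34, so that it shares that line's history, and KO2.6 is the second knockout line, whose cell line field gives another number than its title. Wild type and rescue are 1 line each, with 1 library per passage, so that WT3 and Rescue3.34 serve as the replicates of Zfp281 presence. The end of the retinoic acid and activin treatment, the stay on feeders, the passage number and the time in culture changed together and cannot be told apart.

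Pluripotent cells of the mouse embryo, and the ESCs made from them, rely on transcription factors such as Pou5f1, Sox2, Nanog and Esrrb. These factors bind each other's genes. In culture LIF also helps to hold ESCs in their state, and NODAL and FGF signals act in pluripotent cells as well. Retinoic acid is a diffusible signal that binds nuclear receptors. The receptors switch on the enzymes that degrade retinoic acid and the Hox genes, homeobox factors that lie in clusters and pattern the body axis. XEN cells are stem cells of the primitive endoderm, which forms the yolk sac, and express Gata4, Gata6 and Sox17. Zfp281 is a zinc finger transcription factor of pluripotent cells.

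The 3 promoters shown here belong to genes on either side of the change: a pair that fell and 1 that rose from passage 1 to passage 3. Each sequence is the 250 bases before the annotated start in RefSeq, build GRCm38.p6, written 5′ to 3′ on the gene's strand. Cyp26a1, chr19:37697558-37697807 on the plus strand, encodes a retinoic acid hydroxylase, and its capitals mark AGTTCA, 5 bases of any kind and AGTTCA again (a direct repeat), read on the opposite strand 32 to 16 bases before the start. Rarb, chr14:16575477-16575726 on the minus strand, encodes a retinoic acid receptor, and its capitals mark a looser form of that repeat, which allows A or G as the first and G or T as the third base of each unit, 53 to 37 bases before the start. Nanog, chr6:122707239-122707488 on the plus strand, encodes a homeobox factor of the pluripotent state, and its capitals mark CATTGT, a motif of SOX factors, read on the opposite strand 67 to 62 bases before the start.
Cyp26a1: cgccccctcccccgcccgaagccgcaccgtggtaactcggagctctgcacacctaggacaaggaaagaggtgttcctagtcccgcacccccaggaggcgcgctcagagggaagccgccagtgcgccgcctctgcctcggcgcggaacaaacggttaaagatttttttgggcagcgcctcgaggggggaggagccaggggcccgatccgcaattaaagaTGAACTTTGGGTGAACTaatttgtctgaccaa
Rarb: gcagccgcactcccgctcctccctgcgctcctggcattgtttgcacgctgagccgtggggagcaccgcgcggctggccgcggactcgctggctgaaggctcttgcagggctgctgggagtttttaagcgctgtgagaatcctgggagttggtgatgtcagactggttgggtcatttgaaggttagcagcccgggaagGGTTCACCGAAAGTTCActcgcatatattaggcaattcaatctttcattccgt
Nanog: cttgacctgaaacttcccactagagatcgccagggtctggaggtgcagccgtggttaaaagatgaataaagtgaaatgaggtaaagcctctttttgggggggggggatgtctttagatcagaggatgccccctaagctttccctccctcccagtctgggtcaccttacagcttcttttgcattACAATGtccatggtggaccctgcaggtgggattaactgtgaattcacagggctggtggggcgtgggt
The repeat is the type of element that retinoic acid receptors bind. The strict repeat stood in 8 of 32851 promoter windows of this length (0.0244%) and its looser form in 32 (0.0974%), on either strand. Of the genes that fell from passage 1 to passage 3, 537 were matched to the table by symbol, and 2 of them held the looser form, Cyp26a1 and Rarb. None of the 485 matched genes that rose held it. CATTGT stood in 12.6% of all windows, in 55 of the 537 and in 54 of the 485. The Rarb promoter shown holds CATTGT as well, left unmarked, so that this motif does not set Nanog apart from the pair that fell. The looser repeat and the 3 promoters shown were chosen after the values had been seen, and a match of letters is not a measured binding site.

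The 4 libraries listed 15669 to 16831 genes above 0, with 6.31% to 8.41% of each FPKM sum in the top 10 genes. FPKM is a value per transcript length and library size, so that the sequencing depth is unknown. FPKM sums ranged from 424406 to 718138 over the series, and in WT3 the sum was 424406 at passage 1 and 640798 at passage 3. Zfp281 itself had 25.1 FPKM at passage 1 and 34.0 at passage 3 in WT3, and 27.2 and 38.6 in Rescue3.34, so that both lines kept the gene (log2 change 0.46, SE 0.28, limma adjusted p 0.314). In the knockout lines it had 1.29 to 3.96 FPKM in KO3.34, was listed at 0 at passage 1 of KO2.6 and had 0.559 at passage 3. Eef1a1 and Hsp90ab1, which every cell uses, are listed at 0 in all 6 libraries of WT3 and Rescue3.34, so that an exact 0 in this table can be a failed estimate.

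The labels call passage 3 cells chemically induced XEN cells, and the markers were checked against that name. At passage 3 Nanog had 280 FPKM in WT3 and 221 in Rescue3.34, against 239 and 271 in their own ESCs. Gata4 had 1.11 and 0.23 FPKM, against 410 in KO3.34 and 323 in KO2.6, Sox17 had 0.306 and 0.0631, and Foxa2 had 0.0801 and 0.0773. Gata6 had 1.16 and 5.03 FPKM. The summed level of the XEN marker list was 534 FPKM at passage 1 and 256 at passage 3 in WT3. In Rescue3.34 it was 408 and 812, and the ESCs of these lines had 156 and 163. Measured as FPKM + 1, 8 genes of the list were more than 2-fold above ESC in each line at passage 3. The passage 3 cells of WT3 and Rescue3.34 are therefore named here by line and passage.

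From passage 1 to passage 3, 640 genes rose (4.85% of 13191 tested) and 748 fell (5.67%) in WT3 and Rescue3.34. A gene was called where limma gave a Benjamini-Hochberg adjusted p under 0.05 on log2(FPKM + 1), and a change below is the mean of both lines on that scale. All 1388 called genes had the same sign in both lines, which is largely built in, because a disagreement of the lines works against a call. The lines moved by different amounts: 1480 genes had a log2 change of at least 1 in WT3 and 907 in Rescue3.34, while 1660 and 814 had one of -1 or less. The count of calls was 72 without WT3 and 376 without Rescue3.34. Scaling every library to a sum of 1000000 moved the median change of all genes from 0.01 to -0.31 and gave 466 genes higher and 1501 lower, and no called list gene changed its sign. The counts without 1 line were added after the data had been seen for every list. In bulk RNA, fewer cells of a type and less RNA per cell cannot be told apart.

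The core pluripotency factors went from a few percent of their ESC level at passage 1 to near that level at passage 3. Of 14 core and naive factors, all tested, 12 rose and 0 fell, with a median log2 change of 3.74 against 0.01 over all genes. Nanog (XLOC_016794, chromosome 6, 122657586 to 122663796 in the table's mm9 coordinates) had 3.15 FPKM at passage 1 and 280 at passage 3 in WT3, and 5.13 and 221 in Rescue3.34. Both passage 3 libraries stood far above both passage 1 libraries (log2 change 5.63, SE 0.62, limma adjusted p 0.00282). Pou5f1, the POU factor without which no pluripotent state is held, had 27 and 1313 FPKM in WT3 and 39.6 and 685 in Rescue3.34 (4.82, SE 0.59, limma adjusted p 0.00373). It did not vanish at passage 1, when it stood at 27 FPKM or more in both lines. Sox2, the partner of Pou5f1 on DNA, had 20 and 399 FPKM in WT3 and 40.8 and 195 in Rescue3.34 (3.24, SE 0.49, limma adjusted p 0.00725). Its rise was larger in WT3, by 4.26 against 2.23. Esrrb, a nuclear receptor of naive ESCs, had 0.618 and 204 FPKM in WT3 and 0.875 and 117 in Rescue3.34 (6.48, SE 0.84, limma adjusted p 0.00421), the largest rise of the list. Prdm14, a naive factor that holds back differentiation genes, was listed at 0 in WT3 at passage 1 and had 0.119 FPKM in Rescue3.34, and reached 19.1 and 11.4 at passage 3.

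Klf2, Klf4 and Klf5, Krüppel-like factors of the naive state, rose together, by 3.57, 4.22 and 2.56. Klf4 had 2.56 and 97 FPKM in WT3 and 3.53 and 56.2 in Rescue3.34. Nr0b1, Nr5a2, Tfcp2l1 and Zfp42, the last also known as Rex1, rose by 4.95, 3.26, 3.21 and 4.66. The 2 list members that were not called were Tbx3, with 34 and 31.7 FPKM in WT3 and 21.2 and 27.6 in Rescue3.34, and Sall4, with 22.8 and 70.3 in WT3 and 38.3 and 38.2 in Rescue3.34. At passage 1 Tbx3 was near its ESC levels of 39.9 and 35.5 FPKM, and Sall4 was below its 64.3 and 67.8. At passage 1 the list stood at a median of 2.90% of the own ESC level in WT3 and 3.79% in Rescue3.34, and at passage 3 at 79.3% (45.7% to 190%) and 67.7% (27.5% to 131.5%). Within 2-fold of the own ESC level at passage 3, measured as FPKM + 1, were 13 of 14 factors in WT3 and 9 of 14 in Rescue3.34. The number of the list that passed was 2 without WT3 and 10 without Rescue3.34, and scaling every library to one sum left it at 12.

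**Figure D1:**
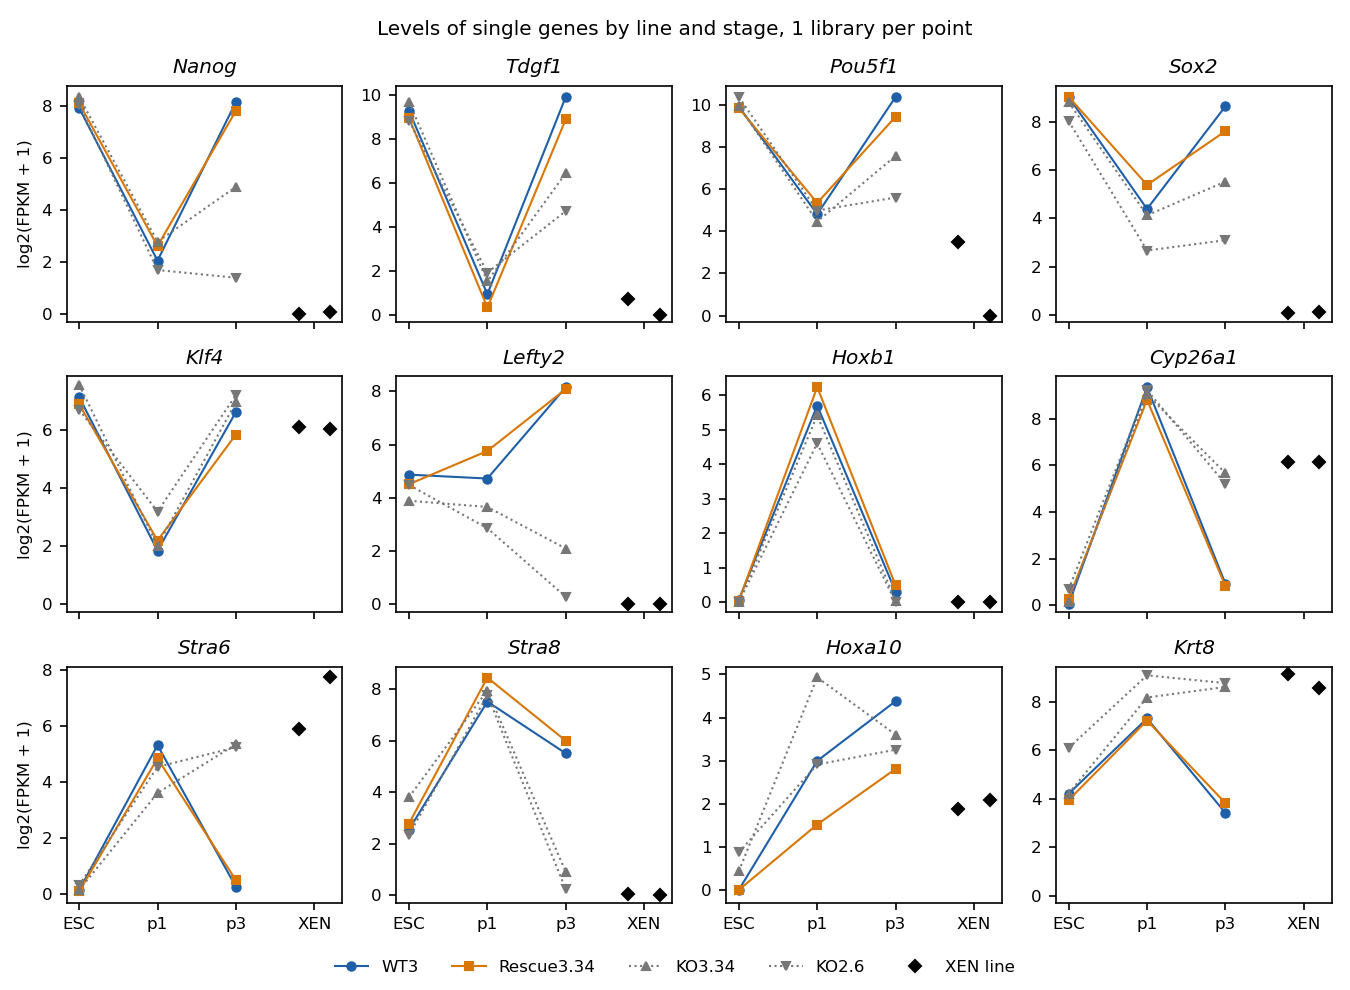
Levels of 12 genes in each library as log2(FPKM + 1), for ESCs, passage 1 (p1), passage 3 (p3) and the XEN lines, with lines joining the libraries of WT3 (blue), Rescue3.34 (orange) and the knockout lines (grey, dotted). Nanog, Tdgf1, Pou5f1, Sox2 and Klf4 dip at passage 1 and are up again at passage 3 in both Zfp281-present lines, with Sox2 and Klf4 in Rescue3.34 at 37.2% and 47.9% of their ESC levels, Hoxb1, Cyp26a1 and Stra6 show the inverse, and Hoxa10 stays up.

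Among 18 pluripotency-associated genes, 13 rose and 0 fell (median 2.60). Tdgf1 (XLOC_021988, chromosome 9, 110842112 to 110848662, mm9), the NODAL co-receptor also known as Cripto, had 0.958 FPKM at passage 1 and 973 at passage 3 in WT3, and 0.287 and 479 in Rescue3.34. It had the largest rise of all called genes (8.75, SE 0.42, limma adjusted p 0.000179), and at passage 3 WT3 stood above its ESC level of 630 FPKM while Rescue3.34 came close to its 502. Tdh, the threonine dehydrogenase on which mouse ESCs rely, went from 0.848 to 230 FPKM in WT3 and from 0.868 to 149 in Rescue3.34 (6.65, SE 1.33, limma adjusted p 0.0211). Tcl1, a cofactor of AKT kinase, went from 0.0356 to 47.2 and from 0.111 to 32.8 (5.23, SE 0.65, limma adjusted p 0.00382). In each of these genes both passage 3 libraries were above both passage 1 libraries.

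Utf1, a chromatin protein of pluripotent cells, rose by 6.03 in WT3 and 3.05 in Rescue3.34, and its passage 3 levels of 481 and 170 FPKM compare with 422 and 406 in ESCs. Dppa5a, one of the most abundant ESC transcripts, had 242 and 3353 FPKM in WT3 and 563 and 1637 in Rescue3.34 (2.66, SE 0.60, limma adjusted p 0.0301). Fbxo15, Spp1, Epha2, L1td1, Zfp296 and Tet1, the methylcytosine dioxygenase, rose by 2.09 to 3.52. Dppa3, also known as Stella and the mark of a naive subset of ESCs, had 3.3 and 12.6 FPKM in the ESCs of WT3 and Rescue3.34, 0.252 and 0.0818 at passage 1, and 0.837 and 0.344 at passage 3, so that it stayed below ESC in both lines. Dppa2 was not lost at passage 1 at all, with 40 and 64.1 FPKM, and had 71 and 72.3 at passage 3, above its 21.3 and 17.1 in ESCs. Lin28a, which blocks let-7 maturation, had 41.6 and 106 FPKM in WT3 and 87.5 and 62.4 in Rescue3.34 and was not called. The count of this list was 1 without WT3 and 7 without Rescue3.34.

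Genes of the formative and primed epiblast, the steps that follow the naive state in the embryo, were partly among those that rose. Of 14, 6 rose and 0 fell (median 2.42). Otx2, which drives the exit from the naive state, went from 0.0258 to 19.9 FPKM in WT3 and from 0.355 to 6.1 in Rescue3.34 (3.37, SE 0.44, limma adjusted p 0.0043). Tcf15, a basic helix-loop-helix factor linked to priming, went from 3.04 to 188 and from 3.85 to 144 (5.22, SE 0.89, limma adjusted p 0.0118), with 60.4 and 59.6 in ESCs. Zic2 went from 4.43 to 37.6 and from 6.54 to 27.8, with 3.44 and 2.63 in ESCs, and Lef1 from 1.29 to 30 and from 1.4 to 10.8, with 0.421 and 0.533 in ESCs. These 3 genes ended more than 2-fold above ESC in both lines. Fgf5, the usual marker of the primed epiblast, did not share this: it had 2.99 and 2.57 FPKM at passage 1 and 0.483 and 0.398 at passage 3, and was not called. Dnmt3a had 30.1 and 30.3 FPKM in WT3 and 22.4 and 26.2 in Rescue3.34, and thus kept at passage 3 the level of passage 1, above its 8.91 and 7.25 in ESCs. Without WT3 0 genes of the list passed, and without Rescue3.34 4.

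In the NODAL pathway, where NODAL and its co-receptor act through activin receptors and SMAD2 and SMAD3, the members moved unevenly: 3 of 16 rose, 1 fell, and the median was 0.53. Nodal itself had 18 and 51.2 FPKM in WT3 and 37.9 and 33.8 in Rescue3.34 and was not called. The risers were Tdgf1, Gdf3, a ligand of the same family (2.54, SE 0.63, limma adjusted p 0.0417), and Lefty2, a secreted inhibitor and target of the pathway. Lefty2 had 25.5 and 283 FPKM in WT3 and 53.2 and 270 in Rescue3.34 (2.87, SE 0.52, limma adjusted p 0.0157). It had 28.3 and 21.8 FPKM in ESCs, so that both passage 3 libraries stood far above ESC. Lefty1, the neighbouring inhibitor, split the lines, with 52.8 and 580 FPKM in WT3 against 309 and 386 in Rescue3.34 (1.88, SE 0.73, limma adjusted p 0.133). Acvr2a, a type II activin receptor, fell by 1.03 (SE 0.27, limma adjusted p 0.0483), while Smad2, Smad3, Acvr1b, Acvr2b and Foxh1 were not called. With 1 line left out, 1 member of the list rose and 0 fell, whichever line it was.

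FGF signalling through ERK was represented by its ligand in ESCs and by the feedback genes it induces. Of 14 tested members 6 rose and 1 fell (median 1.61). Fgf4, the FGF that ESCs secrete, went from 0.326 to 89.6 FPKM in WT3 and from 0.579 to 31.6 in Rescue3.34 (5.23, SE 0.56, limma adjusted p 0.00271). Fgf17 went from 0.196 to 13.1 and from 0.186 to 12.9 (3.55, SE 0.35, limma adjusted p 0.00226), nearly the same change in both lines. The feedback inhibitors Spry2 and Spry4 rose by 3.64 and 4.57, and the ETS factors Etv4 and Etv5 by 4.46 and 3.46, whereas Dusp6, a phosphatase of ERK, had 60.4 and 42.3 FPKM in WT3 and 42.7 and 30.9 in Rescue3.34. Among the receptors Fgfr2 fell, from 22.8 to 1.79 and from 13.5 to 2.05 FPKM (-2.67, SE 0.34, limma adjusted p 0.004), and Fgfr1 had 79.3 and 37 in WT3 and 50.8 and 42.7 in Rescue3.34. The number that rose was 1 without WT3 and 5 without Rescue3.34.

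The labels list no LIF in XEN medium. Of 9 tested genes of the LIF pathway 4 rose and 0 fell (median 1.10). Besides Klf4 these were Stat3, its transducer, with 16.8 and 30.9 FPKM in WT3 and 10.8 and 28.8 in Rescue3.34, Socs3, its feedback inhibitor, with 3.97 and 32 and with 4.42 and 18.9, and the kinase gene Pim1 (1.07, SE 0.19, limma adjusted p 0.0138). Socs3 remained below its ESC levels of 143 and 132 FPKM, while Stat3 was close to its 34 and 28. Lif itself had 0.605 to 2.97 FPKM in all 6 libraries of these lines. Of 12 WNT targets 3 rose, Lef1, Notum and Ccnd1, and 1 fell, Dkk1 (-1.59, SE 0.41, limma adjusted p 0.0468). Notum, a secreted WNT inhibitor, went from 0.527 to 18.4 and from 0.553 to 19.3 FPKM, above 3.89 and 2.25 in ESCs, whereas Axin2, the most general WNT target, had 2.84 and 5.09 in WT3 and 3.09 and 2.28 in Rescue3.34. Ccnd1, cyclin D1 of G1 phase, went from 6.15 to 55.2 and from 11.4 to 61.6 (2.66, SE 0.33, limma adjusted p 0.00399). Without WT3 0 LIF and 0 WNT genes rose, and without Rescue3.34 2 and 2.

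The retinoic acid response had the lowest median of the 19 lists. Of 20 genes 13 fell and 0 rose (median -2.90). The degrading enzyme Cyp26a1 (XLOC_010060, chromosome 19, 37772298 to 37776026, mm9), whose promoter holds the strict repeat, had 649 FPKM at passage 1 and 0.903 at passage 3 in WT3, and 445 and 0.776 in Rescue3.34 (-8.19, SE 0.29, limma adjusted p 2.54e-05). Cyp26b1 went from 58.8 to 0.0628 and from 21.7 to 0.437 FPKM (-4.90, SE 0.53, limma adjusted p 0.00272), and Cyp26c1, never above 2.35, fell too. Cyp26a1 and Cyp26b1 were back below 1 FPKM, as in ESCs, where Cyp26a1 had 0.0324 and 0.227. Of the receptors, Rarb, itself a target of retinoic acid, fell from 36.7 to 1.01 and from 33.9 to 2.03 FPKM (-3.88, SE 0.46, limma adjusted p 0.0036). Rara and Rxra were not called, and Rarg had 12.6 and 75.8 FPKM in WT3 and 12.6 and 56.8 in Rescue3.34 (2.30, SE 0.65, limma adjusted p 0.0604).

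Genes of retinoid transport and turnover fell as well. Crabp2, which delivers retinoic acid to its receptors, went from 256 to 2.9 FPKM in WT3 and from 279 to 11.5 in Rescue3.34 (-5.26, SE 0.41, limma adjusted p 0.00096). Dhrs3, a retinaldehyde reductase, fell by 3.78. Stra6, the membrane receptor for retinol uptake, went from 38.6 to 0.203 and from 27.6 to 0.419 FPKM (-4.69, SE 0.31, limma adjusted p 0.00056). Stra8, a germ cell gene that retinoic acid induces, was the exception in extent: it went from 183 to 44.6 and from 350 to 63.1 FPKM (-2.23, SE 0.31, limma adjusted p 0.00541) and stayed well above its 4.85 and 5.88 in ESCs. Crabp1, Aldh1a2 and Tgm2 were not called. With 1 line left out, 5 genes of the list fell without WT3 and 9 without Rescue3.34.

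Most tested Hox genes fell, among them all 10 of the B cluster. Of 39 Hox genes, all in the table, 33 were tested, of which 22 fell and 1 rose (median -2.25). Hoxb1 (XLOC_002945, chromosome 11, 96227072 to 96229567, mm9), the first Hox gene that retinoic acid induces, had 51 and 0.233 FPKM in WT3 and 74.2 and 0.404 in Rescue3.34 (-5.57, SE 0.29, limma adjusted p 0.000185). All 10 Hoxb genes fell (median -3.99). Their summed level went from 388 to 4.53 FPKM in WT3 and from 403 to 22.4 in Rescue3.34, against 2.72 and 4.36 in ESCs, so that WT3 came closer to the ESC level than Rescue3.34. Of the Hoxa genes 5 of 10 fell, of the Hoxc genes 4 of 8 and of the Hoxd genes 3 of 5. Hoxa5 went from 82.8 to 3.94 and from 87.6 to 5.87 FPKM (-3.89, SE 0.27, limma adjusted p 0.000578), and Hoxc8 went from 27.7 to a listed 0 in WT3 and from 18.3 to 0.398 in Rescue3.34. Hoxa3, Hoxa4, Hoxa5 and Hoxa6 carry the same interval in the table (chromosome 6, 52119061 to 52163596), as do Hoxd3 and Hoxd4, so that their values may share reads.

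The Hox genes did not move alike along the clusters. Of the anterior paralogs 1 to 8, 19 of 22 tested fell (median -3.15), and of the posterior paralogs 9 to 13, 3 of 11 fell and 1 rose (median -0.99). The posterior genes as a group started lower. At passage 1 they summed to 148 FPKM in WT3 and 69.8 in Rescue3.34, against 526 and 665 for the anterior genes. The part of this lower start in their smaller fall was not tested. The riser was Hoxa11, with 0.353 and 4.49 FPKM in WT3 and 0.219 and 1.39 in Rescue3.34 (1.49, SE 0.37, limma adjusted p 0.0425). It is listed at 0 in both ESC libraries. Its neighbour Hoxa10 had 6.97 and 19.8 FPKM in WT3 and 1.86 and 6 in Rescue3.34 and was not called (1.34, SE 0.58, limma adjusted p 0.168), and Hoxa9 had 3.46 and 3.25 and then 1.18 and 0.805. Hoxa10 was thus the most abundant Hox gene at passage 3 in both lines, and it too is listed at 0 in their ESCs. Hoxb13, the most posterior gene of its cluster, fell with the anterior ones, from 65.2 to 1.75 and from 9.26 to 0.825. The number of Hox genes that fell was 9 without WT3 and 17 without Rescue3.34, and Hoxa11 passed in neither.

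**Figure D2:**
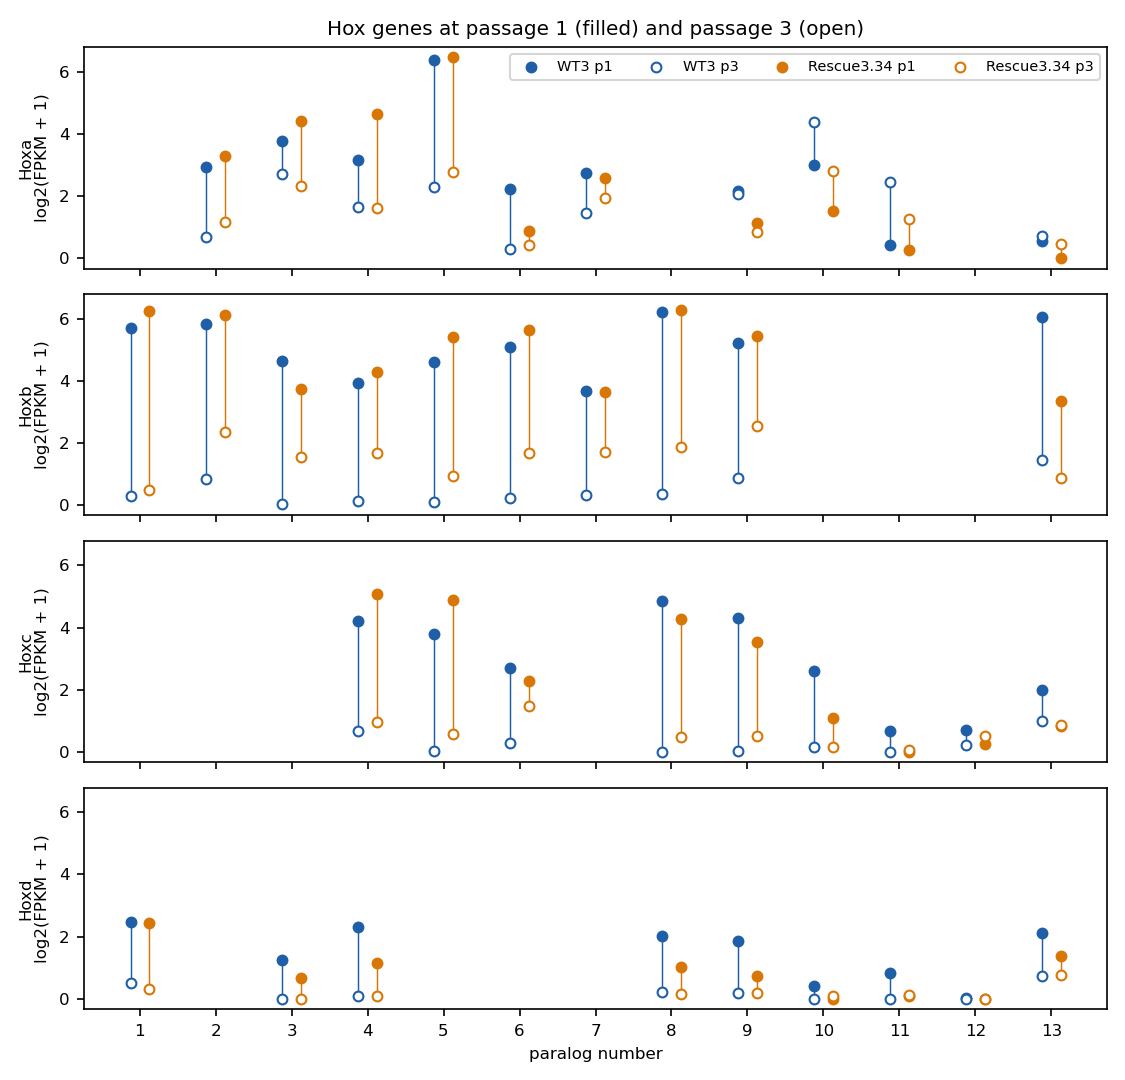
Reported Hox genes of the 4 clusters by paralog number, as log2(FPKM + 1), at passage 1 (filled) and passage 3 (open) in WT3 (blue) and Rescue3.34 (orange), 1 library per point. In the Hoxb row every open point lies below its filled partner, while Hoxa10 and Hoxa11 are the genes whose open points lie clearly above.

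Some of the TALE factors, cofactors with which HOX proteins bind DNA, fell with the Hox genes. They were listed together with caudal (Cdx) and Evx genes, which are not such cofactors. Of 8 tested caudal and TALE factors 5 fell and 0 rose (median -1.43). Meis1 went from 38.4 to 0.301 FPKM in WT3 and from 30.2 to 4.53 in Rescue3.34 (-3.71, SE 0.62, limma adjusted p 0.0114). Meis2 went from 75.8 to 2.41 and from 59.3 to 10.7. In both genes Rescue3.34 ended higher than WT3. Pbx3 was not called, with 7.88 and 8.15 FPKM in WT3 and 9.34 and 6.39 in Rescue3.34. The count was 0 without WT3 and 3 without Rescue3.34.

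Genes under BMP signals, the ID proteins that block basic helix-loop-helix factors among them, were lower at passage 3. Of 12 tested 6 fell and 0 rose (median -1.50). Id2 went from 106 to 13.7 FPKM in WT3 and from 175 to 6.76 in Rescue3.34 (-3.69, SE 0.41, limma adjusted p 0.00285), and Id3 from 313 to 12.2 and from 110 to 34. Id1 had 119 and 18.6 FPKM in WT3 and 94.9 and 14.1 in Rescue3.34, the same direction, but did not pass (limma adjusted p 0.0963). Msx1, a homeobox target of BMP, went from 26.8 to 0.306 and from 35.8 to 0.762 (-4.40, SE 0.49, limma adjusted p 0.00281), and Smad6, Msx2 and the receptor gene Bmpr1a fell by 1.48, 1.89 and 1.09. The ligand genes Bmp2, Bmp4 and Bmp7 were not called. Without WT3 1 member of the list fell, and without Rescue3.34 3.

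Other groups that were raised at passage 1 fell in part. The keratins of simple epithelia, Krt8, Krt18 and Krt19, fell by 3.66, 3.73 and 2.46. Krt18 had 185 and 9.93 FPKM in WT3 and 149 and 13.6 in Rescue3.34 (SE 0.24, limma adjusted p 0.000505), and was back near its ESC levels of 13.8 and 14.8. Cdh2, N-cadherin, and Cldn6, a claudin, were the other 2 of the 5 epithelial and mesenchymal genes that fell of 14, and 0 rose. The number that fell was 2 without WT3 and 2 without Rescue3.34. Cdh1, E-cadherin, was not called: it had 62.3 and 122 FPKM in WT3 and 129 and 73.2 in Rescue3.34, opposite directions in the lines.

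Of the lineage markers, 3 of 10 tested neural progenitor genes fell, Irx3 (-2.53), Pax6 (-1.31) and Sox11 (-0.99), and 0 rose. Pax6 kept 4.51 and 4.54 FPKM at passage 3, against 0.324 and 0.119 in ESCs. Of 5 tested mesendoderm genes Foxa2 and Lhx1 fell and Eomes rose. The other 7 of that list, among them T and Mixl1, were left out by the filter on low values, and T was at most 0.45 FPKM in the 4 libraries. Of 9 tested trophoblast genes Eomes and Tfap2c rose and Gata3 fell. Tfap2c is also a factor of naive ESCs, and went from 0.581 to 28.3 FPKM in WT3 and from 1.24 to 18.4 in Rescue3.34, against 67.7 and 107 in ESCs. Among 20 tested XEN genes 2 fell, Foxa2 and Ttr, and 0 rose. Of their transcription factors Gata4 had 2.72 and 0.923 FPKM at passage 1, Sox17 2.38 and 1.95, and Foxa2 3.9 and 23.7. Gata6 had 18.2 and 1.16 FPKM in WT3 and 7.04 and 5.03 in Rescue3.34 and was not called. Of 17 G1 regulators and p53 targets Ccnd1 rose and Mycl1 fell (-1.19), and the other 15 were not called. Without WT3, of these lists 1 mesendoderm and 1 XEN gene fell and no neural, trophoblast or G1 gene was called. Without Rescue3.34, 2 neural, 1 mesendoderm, 1 trophoblast and 1 XEN gene fell, and of the G1 genes 1 rose and 1 fell.

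**Figure D3:**
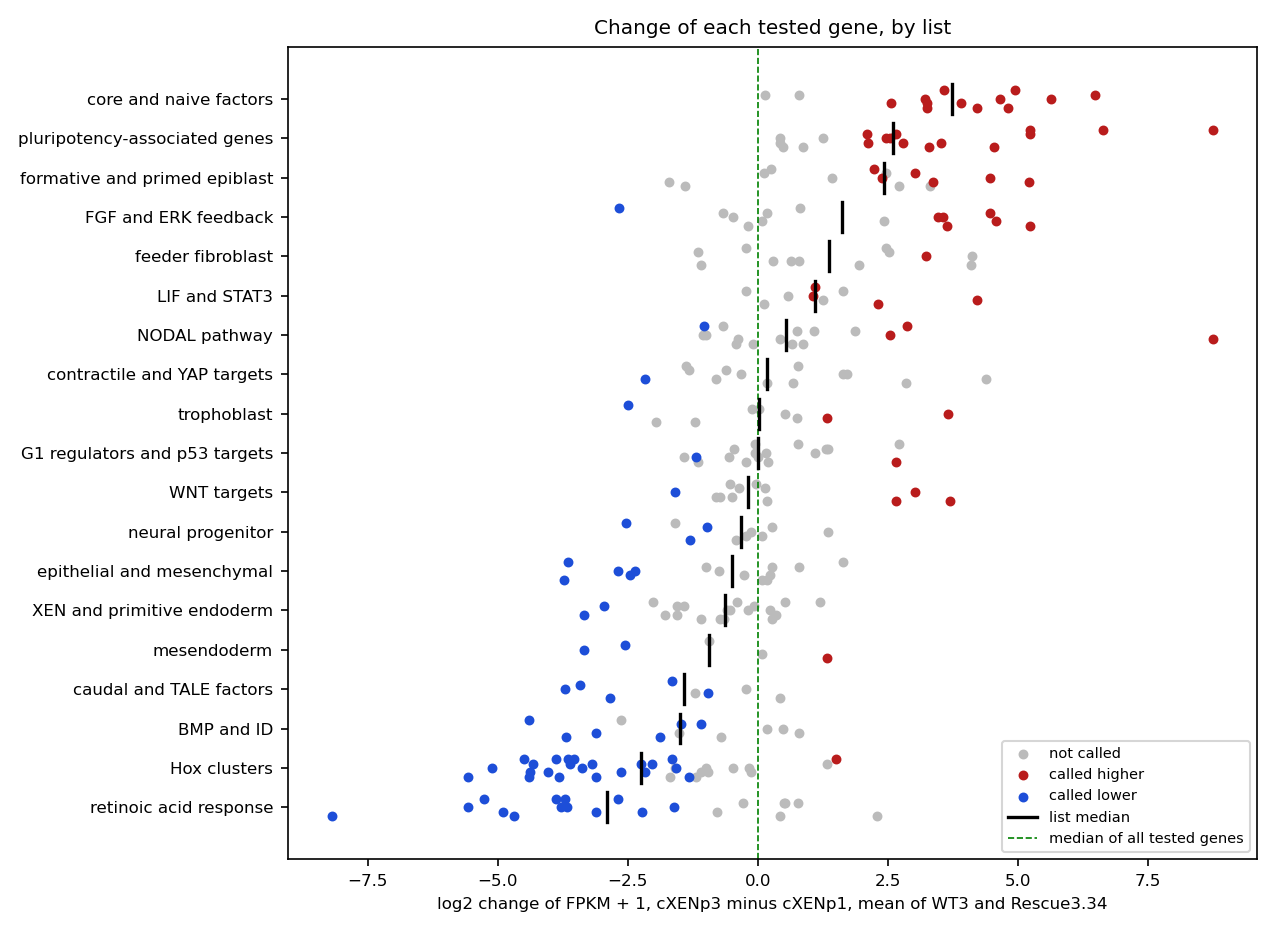
Change from passage 1 to passage 3 of every tested gene of the 19 lists, as the mean log2 change of WT3 and Rescue3.34 on log2(FPKM + 1), with called genes in red (higher) or blue (lower), the median of each list as a bar and the median of all tested genes as a dashed line. Core and naive factors lie at the top (median 3.74), Hox genes (-2.25) and the retinoic acid response (-2.90) at the bottom.

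Outside the lists, the genes with the largest rises by rule were Gm7325, Upp1 and Inhbb, beside those described above. Upp1, a uridine phosphorylase, went from 7.18 to 518 FPKM in WT3 and from 9.73 to 272 in Rescue3.34 (5.33, SE 0.75, limma adjusted p 0.00566), and Inhbb, a subunit of activin B, from 0.0843 to 38.2 and from 0.0332 to 27.3 (4.98, SE 0.32, limma adjusted p 0.000505). Inhbb thus ended near its ESC level of 37.7 FPKM in WT3 and at 75.6% of its 36.1 in Rescue3.34. Among the largest falls outside the lists were Arg1, arginase (-5.14), Pmp22, a myelin protein (-5.11), Igfbp5, a binding protein of insulin-like growth factors (-4.52), and the zinc finger genes Zfp703 (-4.46) and Tshz1 (-4.32). Pmp22 had 192 and 1.65 FPKM in WT3 and 178 and 9.88 in Rescue3.34. None of these 5 genes exceeded 0.717 FPKM in the ESCs of either line.

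Passage 3 levels were set against the ESC level of the same line, as a description without a test. Here and for the lists above, 2-fold refers to FPKM + 1. Genes near 0 FPKM in ESCs can thus count as within 2-fold while their FPKM differs by more. In WT3, Cyp26a1 did so with 0.903 FPKM against 0.0324 in ESCs, and Hoxb1 with 0.233 against 0.0476. The library description begins with XH in the passage 1 and passage 3 libraries and with JH in both ESC libraries, and what these letters mark is not given. Of the 640 genes that rose, 441 (68.9%) were within 2-fold of ESC at passage 3 in both lines, 52 were above that and 27 below. At passage 1, 428 of them had been more than 2-fold below ESC in both lines. Of the 748 genes that fell, 588 (78.6%) were within 2-fold, 30 were above and 10 below, and 546 had been above at passage 1. Over all 13191 genes, 10827 (82.1%) were within 2-fold in both lines. Among the genes that rose and ended above ESC were Lefty2, Zic2, Lef1, Notum and Epha2, all from the lists. The genes that fell and stayed above ESC included Stra8, Hoxa3, Hoxa4, Hoxa5, Meis2 and Pax6, and the imprinted genes Peg10 and Mest. Peg10, Mest and the genes of the next paragraph that no list holds were named after their values had been seen.

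WT3 and Rescue3.34 differed in genes of fibroblasts and of contractile cells. Col3a1, a fibrillar collagen, had 3.01 FPKM at passage 1 and 4.21 at passage 3 in WT3, and 0.329 and 305 in Rescue3.34. Col1a1 had 8.5 and 17.5 in WT3 and 2.37 and 509 in Rescue3.34, Acta2, smooth muscle actin, 17.6 and 14.6 against 6.46 and 462, and Actg2 0.164 and 1.66 against 0.0417 and 196. Among the passage 1 and passage 3 libraries of WT3 and Rescue3.34, that of Rescue3.34 at passage 3 stood alone in each gene. None of these 4 genes was called (limma adjusted p 0.0576 to 0.149). The knockout lines KO3.34 and KO2.6 had 133 and 168 FPKM of Col1a1 and 130 and 122 of Acta2 at passage 3. They had 30 and 20.8 of Col3a1 and 39.8 and 20.8 of Actg2. By a rule of size, a difference between the lines' changes of at least 2 on the log2 scale and 5 FPKM in 1 of the 4 libraries, 352 of 9620 genes differed, 310 of them with the more positive change in Rescue3.34. With 1 library per line and passage this has no test. Of the 352, 49 were called, and 78 had a change of -1 or less in WT3 and of at least 1 in Rescue3.34. The rule also named Igf2, with 32.8 and 3.56 FPKM in WT3 and 19.3 and 358 in Rescue3.34, H19, with 194 and 7.83 against 100 and 344, and Crispld2, with 41.4 and 0.703 against 6.66 and 22. Snhg9, a small nucleolar RNA host gene, was listed at 0 at passage 1 in WT3 and at passage 3 in Rescue3.34.

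The whole marker list of feeder fibroblasts moved with this. Its 12 genes summed to 78.4 FPKM at passage 1 and 43.5 at passage 3 in WT3, and to 61.8 and 1319 in Rescue3.34. Single values were higher at passage 3 for 5 of the 12 genes in WT3 and for 11 in Rescue3.34, and Lum was listed at 0 in WT3 at passage 3. The knockout lines went from 38.5 to 386 (KO3.34) and from 22.5 to 494 (KO2.6), and XENB1 and XEN5, grown without feeders, had 953 and 696. Of the 12 genes 1 rose over both lines, Fbln2 (3.23, SE 0.56, limma adjusted p 0.0132). Without WT3 6 rose, and without Rescue3.34 0. The culture passed over feeders between passage 1 and passage 3, and the part of leftover feeder cells in the Rescue3.34 values was not tested. Of 13 contractile and YAP target genes 1 fell, Amotl2 (-2.17, SE 0.36, limma adjusted p 0.0104), and 0 rose. Tagln and Myl9 had log2 changes of -2.99 and -3.02 in WT3 and of 1.39 and 1.78 in Rescue3.34. The list summed to 842 and 171 FPKM in WT3 and to 828 and 2113 in Rescue3.34. It went from 1502 to 2374 in KO3.34 and from 1163 to 3918 in KO2.6, and had 4544 in XENB1 and 1889 in XEN5. Without WT3 2 of its genes rose and 0 fell, and without Rescue3.34 0 rose and 5 fell.

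**Figure D4:**
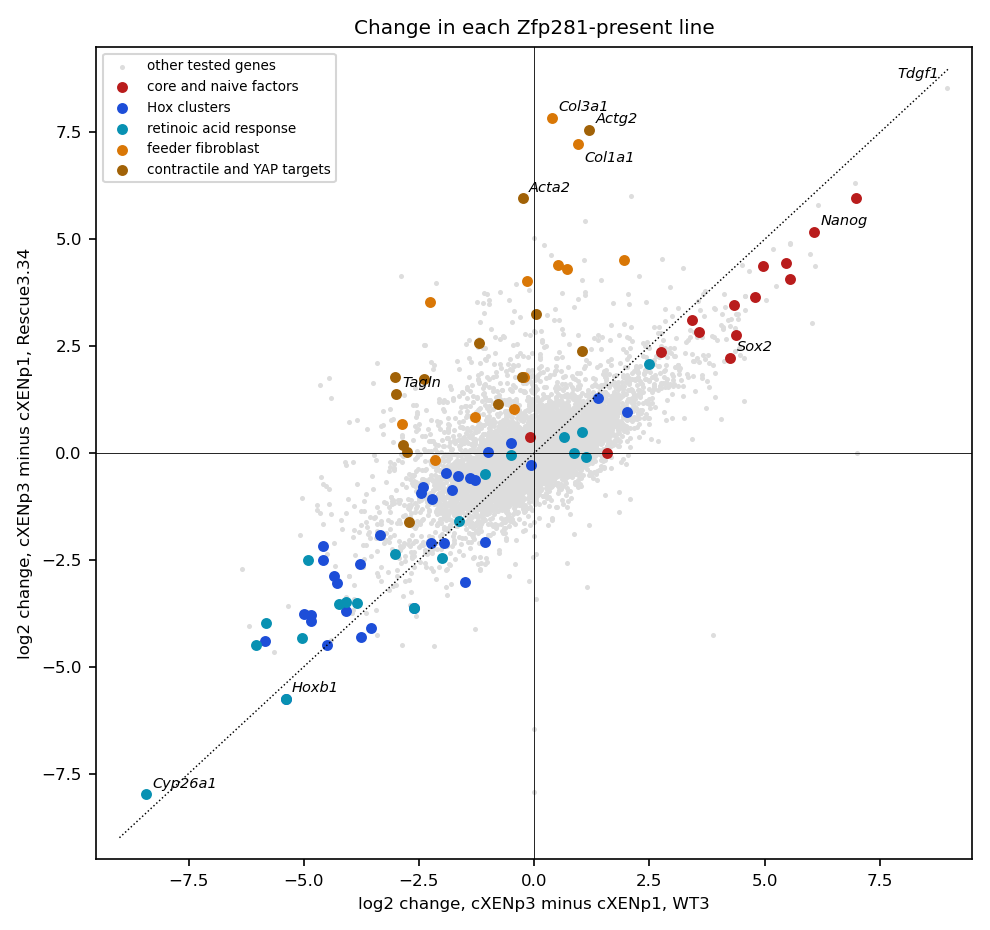
Log2 change of each tested gene from passage 1 to passage 3 in WT3 (horizontal) and in Rescue3.34 (vertical), on log2(FPKM + 1), with 5 lists coloured and the dotted line marking equal change. Core and naive factors lie at the upper right and Hox and retinoic acid genes at the lower left, while Col3a1, Col1a1, Acta2 and Actg2 stand high in Rescue3.34 with WT3 changes of -0.25 to 1.19.

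The same passages were compared in the knockout lines, and the difference of the changes was tested. Without Zfp281, 1708 genes rose (12.9% of those tested) and 1264 fell (9.58%). The change of the Zfp281-present lines exceeded that of the knockout lines in 613 genes (4.65%) and was below it in 970 (7.35%). Of the 640 genes that rose with Zfp281, 248 also had a difference in that direction, and of the 748 that fell, 190 did. Both comparisons share the Zfp281-present libraries, so that this overlap is partly built in.

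The pluripotency factors differed in 1 direction. Of the 14 core factors 1 rose in the knockout lines, Klf4, and 6 differed, all with the larger rise where Zfp281 was present: Nanog, Esrrb, Klf2, Nr5a2, Prdm14 and Zfp42. Nanog had 5.87 and 28.5 FPKM in KO3.34 and 2.24 and 1.64 in KO2.6, and the difference of changes was 4.73 (limma adjusted p 0.0188). Zfp42 went from 14.3 to 42.6 in KO3.34 and from 25.3 to 8.83 in KO2.6 (difference 4.62, limma adjusted p 0.0162). The knockout lines thus differed from each other: in KO3.34 the values of all 14 factors were higher at passage 3 than at passage 1, and in KO2.6 those of 7. Pou5f1 had 21 and 189 FPKM in KO3.34 and 30.6 and 47.4 in KO2.6, and its difference did not pass (2.96, limma adjusted p 0.0544). Klf4 rose by 4.48 without Zfp281 and by 4.22 with it (difference -0.26, limma adjusted p 0.793).

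Of the 18 pluripotency-associated genes 9 had the larger change with Zfp281, and 0 the smaller. Tdgf1 rose in both genotypes, by 8.75 with Zfp281 and 3.86 without (difference 4.90, limma adjusted p 0.00568), and reached 87.3 FPKM in KO3.34 and 25.7 in KO2.6. Dppa2 fell in the knockout lines, from 160 to 13.8 and from 127 to 5.2 FPKM, and had a log2 change of 0.49 with Zfp281 (difference 4.40, limma adjusted p 0.0205). Lefty2 fell without Zfp281 and rose with it (difference 4.94, limma adjusted p 0.0106), and Pim1 did so too (difference 3.50, limma adjusted p 0.00142). The LIF list as a whole did not follow Pim1. Of its 9 genes 6 rose and 1 fell in the knockout lines, and the median difference was -0.60. Only 1 of them had a called larger change with Zfp281, and 1 a called smaller change. The number of core factors that differed was 0 without WT3 and 2 without Rescue3.34.

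The retinoic acid and Hox genes fell in both genotypes. Of the 20 retinoic acid genes 12 fell in the knockout lines, and the difference was called in 3. Cyp26a1 fell less there, to 49.8 FPKM in KO3.34 and 35.8 in KO2.6, which compares with 69.7 and 69.5 in the XEN lines (difference -4.50, limma adjusted p 0.00187). Stra6 did not fall but had 11.2 and 39.5 FPKM in KO3.34 and 22.2 and 36.7 in KO2.6 (difference -5.90, limma adjusted p 0.00139). Stra8 went the other way, from 247 to 0.871 and from 218 to 0.17 FPKM, so that its fall was larger without Zfp281 (difference 5.07, limma adjusted p 0.00162). Of the 33 tested Hox genes 24 fell in the knockout lines and 2 differed, Hoxd8 and Hoxd9, which had 1.62 and 2.67 FPKM in KO3.34 at passage 3 and 2.32 and 5.47 in KO2.6, against at most 0.18 in WT3 and Rescue3.34. Hoxb1 fell by 4.99 without Zfp281 and by 5.57 with it (difference -0.58, limma adjusted p 0.337).

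XEN genes parted the genotypes. Of 20 tested, 8 rose in the knockout lines and 7 had the lower change with Zfp281, among them Gata4 (difference -4.74, limma adjusted p 0.0367), Gata6 (-5.00, limma adjusted p 0.0352), Sox17 (-4.47, limma adjusted p 0.0178) and Foxa2 (-5.80, limma adjusted p 0.00702). The other 3 of the 7 were Pdgfra, Lamb1 and Ttr. Another 5, Col4a1, Col4a2, Lama1, Lamc1 and Sparc, are listed at 0 in both knockout libraries at passage 3, and no fold is given for them. Sparc, a matrix protein that XEN cells make in quantity, had 184 and 79.8 FPKM in WT3 and 151 and 475 in Rescue3.34. Krt8 and Krt18 fell with Zfp281 and had log2 changes of 0.06 and -0.62 without it (differences -3.71 and -3.10, limma adjusted p 0.00838 and 0.00369).

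**Figure D5:**
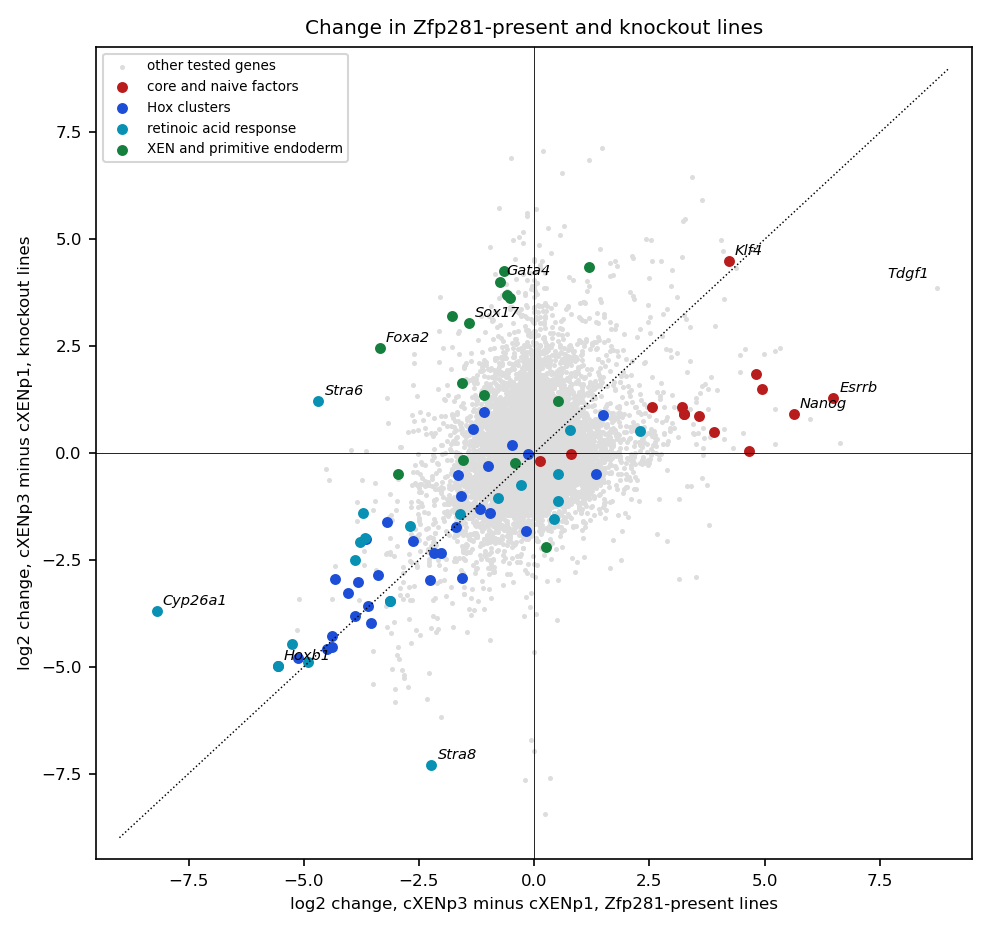
Log2 change of each tested gene from passage 1 to passage 3 in the Zfp281-present lines (horizontal) and in the knockout lines (vertical), each the mean of 2 lines on log2(FPKM + 1), with 4 lists coloured, genes listed at 0 in a whole stage left out of the coloured points, and equal change dotted. Core and naive factors lie to the right, most of them below the dotted line with Klf4 on it, most Hox genes lie near that line, and XEN genes such as Gata4, Sox17 and Foxa2 lie high at the left.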

How the data were processed

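PolyA RNA was sequenced as 150 bp read pairs, per the labels' protocols. The authors deposited 1 table of 23174 genes with FPKM values for 14 libraries; the unit is inferred from values that are not whole numbers and sums that differ, so that depth is unknown and no counting interval can be given. The submitters' processing notes name STAR 2.5.3, Cufflinks 2.1.1 and the build mm9 without their roles, and strand handling is not given in the sources used here.

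From the FPKM values, log2(FPKM + 1) was computed and genes with at least 1 FPKM in at least 2 of the 12 ESC, passage 1 and passage 3 libraries were kept (13191). limma 3.58.1 (R 4.3.3; lmFit, eBayes with trend) was fitted to these 12 libraries with line as a block and stage nested in Zfp281 status, which leaves 4 residual degrees of freedom. Libraries were paired because they come from the same cell line. P-values are two-sided and Benjamini-Hochberg adjusted over all tested genes, with a threshold of 0.05. There is 1 library per line and stage, so that lines serve as replicates. On data simulated with 200 of 12757 genes changed by a log2 value of 2, 72% were recovered with 6 false calls. For the difference from the knockout lines it was 40% with 4. Changed genes with low values had first been raised in all libraries, so that recovery of genes near 0 FPKM was not measured. Alternatives were another pseudocount, other filters, 2 scalings, other sets of libraries, no trend, a minimum change, no block, and leaving out each line. Tables and plots used pandas 2.3.3 and matplotlib 3.10.9.

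Genes named by rule were the 15 largest called rises and the 15 largest called falls, the 8 with the largest difference between the lines' changes, and the 8 largest called differences from the knockout lines, leaving out genes listed at 0 in a whole stage. The largest positive differences were added after the values had been seen. Some genes of these lists are counted but not reported here. The members and gene lists were chosen with earlier results of these data known. Of the table's symbols 422 stand on repeated rows, and no pair of libraries held identical values.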

Additional observations from a re-analysis of the deposited data

Results flagged for a closer look

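The change from passage 1 to passage 3 differed between the Zfp281-present and the knockout lines in 1583 genes by the interaction term in limma (Benjamini-Hochberg adjusted p under 0.05). Leaving out genes listed at 0 in a whole stage, such as Eef1a1 and Sparc, which count among these, the 8 largest called differences, 7 of which are given here, were negative, from genes that were high in the knockout lines at passage 3. Fst, follistatin, a secreted activin inhibitor, had 3.57 and 0.853 FPKM in WT3, 5.07 and 4.25 in Rescue3.34, 6.3 and 405 in KO3.34 and 6.83 and 401 in KO2.6 (difference of log2 changes -6.49, adjusted p 0.00162). Thbd, thrombomodulin, reached 253 and 173 FPKM in the knockout lines at passage 3, against 0.545 and 4.56 (-5.68). Fst and Thbd were named for the size of this difference, so that the gap between the genotypes at passage 3 is largely built in.

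Slco2a1, a prostaglandin transporter, had 0.551 and 0.416 FPKM at passage 3 with Zfp281 and 82.8 and 273 without (-5.78). Hs3st1, a heparan sulfate sulfotransferase, had 0.27 and 0.219 against 357 and 259 (-5.70), and Pth1r, the parathyroid hormone receptor of parietal endoderm, 1.67 and 1.77 against 402 and 278 (-5.69). The XEN lines had 339 and 332 FPKM of Hs3st1 and 491 and 531 of Pth1r. Stra6 (-5.90) and Foxa2 (-5.80) fell with Zfp281 and rose without it.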

How the results depend on the processing

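The results rest on 1 library per line and stage. With 1 Zfp281-present line left out, the remaining library is assumed to vary like those of the other lines, and the count fell from 1388 to between 72 (without WT3) and 376 (without Rescue3.34), with 45 to 129 genes higher and 27 to 247 lower; the count of differences from the knockout lines, 1583 in all, went from 12 to 1688. It was 12 without WT3, 405 without Rescue3.34 and 649 without KO2.6. Igf2 changed its sign without Rescue3.34, from 0.63 to -2.89. A mean of at least 5 FPKM gave 856 genes, 394 of them lower. Fitting the 8 passage 1 and passage 3 libraries gave 604, with 301 higher and 303 lower, and 436 differences. Keeping any gene with a value above 0 gave 417 higher and 935 differences. Scaling to 1000000 per library gave 1501 lower, so that 23.7% of calls were higher against 46.1%. With no replicate block, that is without pairing by line, the counts were 1441 and 1510. Of 122 named or listed genes followed, 89 lost their call without WT3, 42 without Rescue3.34, 20 with the 8 libraries and 19 with the loosest filter. The other settings cost at most 8 calls each among the genes still tested, and a mean of at least 5 FPKM left others of the 122, such as Hoxb7 and Cyp26c1, untested. Unknown depth limits what can be said of genes near 0 FPKM. The cause of these shifts was not tested.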

Other observations

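Glycolysis genes rose from passage 1 to passage 3 in the Zfp281-present lines. This list and those that follow in this section were chosen after the values had been seen. Of 17 genes of glucose uptake and glycolysis, all tested, 11 rose and 0 fell (median log2 change 1.85, against 0.01 over all genes). In the knockout lines 2 rose. In each of the 17 genes the change was larger in WT3 than in Rescue3.34, for example 3.23 against 1.57 in Aldoa. The list summed to 3446 FPKM at passage 1 and 16214 at passage 3 in WT3, and to 4369 and 9096 in Rescue3.34. For the lists of this section, counts with 1 line left out were not made. Ldha, lactate dehydrogenase, had 207 and 1669 FPKM in WT3 and 301 and 1051 in Rescue3.34 (2.40, SE 0.43, limma adjusted p 0.0148), and 1317 and 1387 in their ESCs. Pfkp, a phosphofructokinase, went from 1.97 to 51.3 and from 2.46 to 36.1 (3.78, SE 0.35, limma adjusted p 0.00178). Pdk1, which holds pyruvate back from the mitochondria, went from 10.4 to 94.9 and from 6.97 to 50.8. The difference from the knockout lines was called for Slc2a1, Pfkp, Pgam1 and Pdk1. Gapdh, Eno1, Gpi1, Hk1, Pfkl and Pfkm were not called.

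Zscan4 and Usp17l genes, which mark a rare state of ESCs that resembles the early cleavage embryo, were high at passage 1. Of 11 tested, 10 fell and 0 rose in the Zfp281-present lines, and 11 fell in the knockout lines. Zscan4c had 47.6 and 1.87 FPKM in WT3 and 22.8 and 7.97 in Rescue3.34. Its ESC value was listed at 0 in WT3 and was 0.0207 in Rescue3.34. These genes are near-identical copies that can share reads, so that single values are uncertain.

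Of 17 imprinted genes 3 fell and 0 rose: Peg10 (-3.80), Peg3 (-3.05) and Mest (-2.24). Peg3 ended at 4.47 FPKM in WT3 and 26 in Rescue3.34. Dlk1 had 47 and 1.26 FPKM in WT3 and 17 and 42.7 in Rescue3.34, and Plagl1 29 and 2.46 against 14.7 and 25.7, opposite directions that were not tested between the lines.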
